A study of Mus musculus with 4 samples.

Results

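The comparison described here is that of CD4+ T cells carrying a Tox2 retrovirus with cells carrying a GFP-only retrovirus, both kept in Th0 culture. It was made between 2 of the 4 RNA-seq libraries of the series, 1 for each virus, and covered 10960 of the 11027 genes in the deposited tables. Both libraries came from naive CD4+ T cells of wild-type C57BL/6 mice, 7 to 8 weeks of age, taken from spleen and lymph nodes. The cells were activated and transduced under neutral conditions with Tox2-RV-GFP or Empty-RV-GFP, sorted for GFP, and then grown in Th0 medium. In Th0 medium IL-2, IL-4 and IFN-gamma were blocked by antibodies and IL-6 was not added, so both libraries lacked the cytokine that the series adds for its Tfh-like culture. Tox2 was forced from a retrovirus in cells that were otherwise wild type. No source used here gives the promoter of the virus, the number of animals or any pooling.

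Tox2 belongs to the TOX family of HMG-box proteins, which bind DNA and act on gene expression and chromatin. T follicular helper (Tfh) cells are the CD4+ T cells that help B cells in germinal centres. Their program rests on the repressor Bcl6, on TCF-1 (the product of Tcf7), and on the follicle-homing receptor CXCR5. Th17 cells secrete the cytokines IL-17A and IL-17F, and cytotoxic T cells carry granzymes and perforin. The series asked by what route Tox2 acts in Tfh differentiation, and the Th0 pair shows what differed with the virus where IL-6 was not supplied.

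The GFP library held 13015283 counts and the Tox2 library 13673774. A gene at 0 could have up to 3 counts, which is 0.219 CPM (counts scaled to a common library total) in the Tox2 library. Mitochondrial transcripts made up 2.45% of counts in each. With 1 library a side there is no replicate, no test and no p-value. Each fold below is the log2 ratio of TMM-scaled CPM, Tox2 over GFP, with a prior count of 2, and the range after it is an exact 95% interval that covers counting error only. A gene is called 2-fold higher or lower where the log2 fold is at least 1 in size and that interval excludes no difference. Such a call compares these libraries, not the conditions. The tables give 1 sample per group, so differences between cultures or animals are not measured.

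Both libraries had the transcripts of CD4+ T cells. Of 10 CD4+ T-cell markers 9 were compared and none was called, and Cd4 itself had an FPKM (fragments per kilobase scaled to library size, the authors' values) of 252 with GFP and 350 with Tox2. Cd3e had 68.4 and 71.7. Markers of other cells were sparse. Of 10 B-cell markers 2 were compared, Cd79a with 19 and 24 counts and Ebf1 with 20 and 118, so the summed level of these 2 was 2.90 CPM with GFP and 10.2 with Tox2. The 4 monocyte and macrophage markers compared summed to 10.8 and 12.7 CPM, most of it Cd68 with 99 and 149 counts. The others had fewer counts with Tox2: Cd14 20 and 9, Itgam 19 and 16, and Ly6c2 7 and 2. For dendritic cells 5 of 10 were compared and summed to 1052 and 1334 CPM, nearly all of it Ccr7, which T cells also express. The 4 stromal, endothelial and epithelial markers summed to 154 and 208 CPM, most of it Pecam1, and Epcam was called higher with 110 and 274 counts. Of erythroid and platelet markers Itga2b was compared, with 23 and 36 counts, and for CD8+ T cells Cd8b1, with 135 and 127. No marker of NK cells, granulocytes or gamma-delta T cells was in the tables. The part of other cells in the differences below was not tested. In bulk RNA, fewer cells of a type and less RNA per cell cannot be told apart.

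Tox2 had 144 counts with GFP and 35297 with Tox2, so the libraries matched their labels. Its FPKM was 2.49 and 602, and its log2 fold 7.87 (7.65 to 8.14). The gene lies at chr2:163203125-163324170 (plus strand, GRCm38). Per-gene counts hold viral and endogenous Tox2 transcripts together. With the virus, Tox2 took 0.258% of all counts (exact binomial interval 0.255 to 0.261%) against 0.00111% (0.000933 to 0.00130%) without it. Of its relatives, Tox had 1455 and 1508 counts, a log2 fold of 0.00 (-0.10 to 0.11).

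Of the 10960 genes, 348 were called higher with Tox2 (3.18%) and 171 lower (1.56%), 519 in all (4.74%). All counts of list members below are to be read against these shares, and against the shares by level given later in this paragraph. The lists were chosen with earlier results of these data known, so a count above these shares is no test of a list. The median gene had a log2 fold of -0.00080, and the middle 50% of genes lay between -0.23 and 0.25. At least 4-fold higher were 72 genes and at least 4-fold lower 26, and 8-fold 21 and 5. The whole counting interval lay beyond 2-fold for 194 genes on the higher and 67 on the lower side. When genes were split by mean CPM into 10 equal sets, 1.19% of the highest set were called higher and 0.365% lower, against 7.12% and 6.48% of the lowest. The next-lowest set had 8.49% and 3.19%. Genes with few counts were thus called more often than all genes, so lists rich in them hold more calls for that reason alone. Together the 348 higher genes held 0.703% of counts with GFP and 2.07% with Tox2, of which all but Tox2 itself made up 0.702% and 1.81%. The 171 lower genes held 0.543% and 0.205%.

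**Figure D1:**
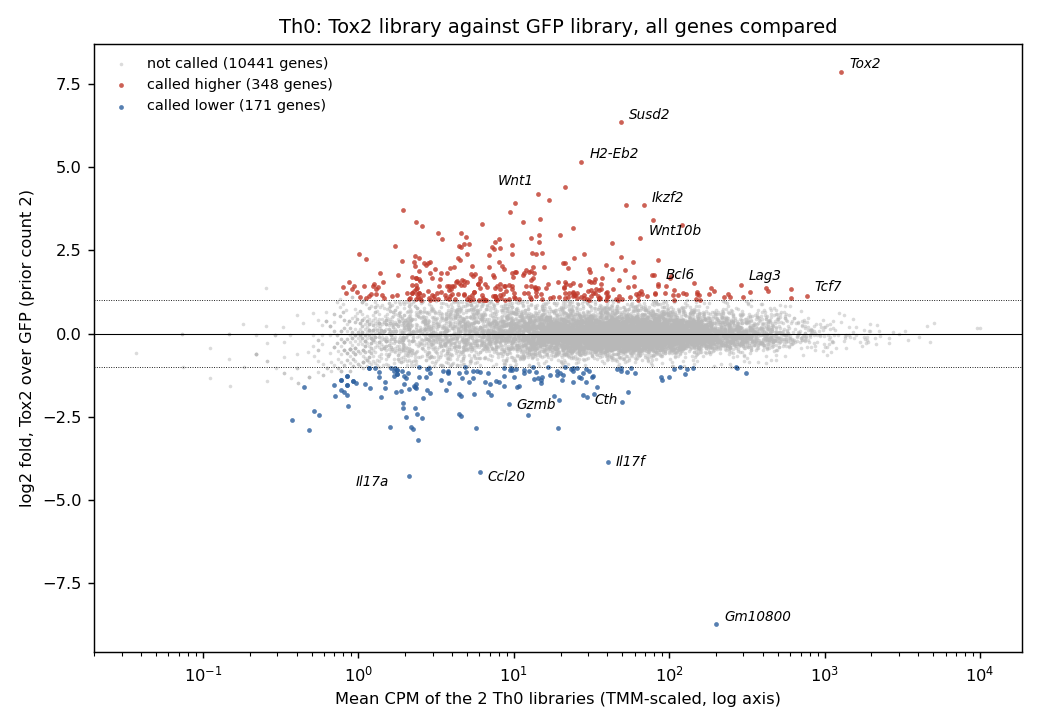
Each point is 1 of 10960 genes, with the mean CPM of the 2 Th0 libraries on a log axis (x) and the log2 fold of Tox2 over GFP (y); dotted lines mark 2-fold. The 348 genes called higher are red, the 171 called lower blue; Tox2 stands at 7.87 and the predicted gene Gm10800 at -8.74.

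Folds moved with gene length, and this touches every result. Length was read from the deposited counts and FPKM and is given relative to the median gene. Of 10 equal sets by length, the set of shortest genes had a median log2 fold of -0.19, with 2.74% called higher and 3.65% lower. The longest set had 0.21, with 3.38% and 0.912%. Across genes, which share 2 libraries and are not replicates, Spearman's rho between length and fold was 0.301 (n = 10960). In the Tfh-like pair of libraries the shortest and longest sets had medians of -0.06 and 0.08. With the trend on length removed 507 genes were called (344 higher, 163 lower), and 455 of the 519 calls remained. The source of the trend was not tested. Calls also differed with GC content: of 10 such sets, the lowest in GC had 1.28% called higher and 0.821% lower. The highest in GC had 5.38% and 2.83%. The median log2 folds of these sets were 0.00 and -0.05. Folds with the length trend removed are given below where a gene named as called loses its call with it. Other genes gained a call, and only some of these are given.

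**Figure D2:**
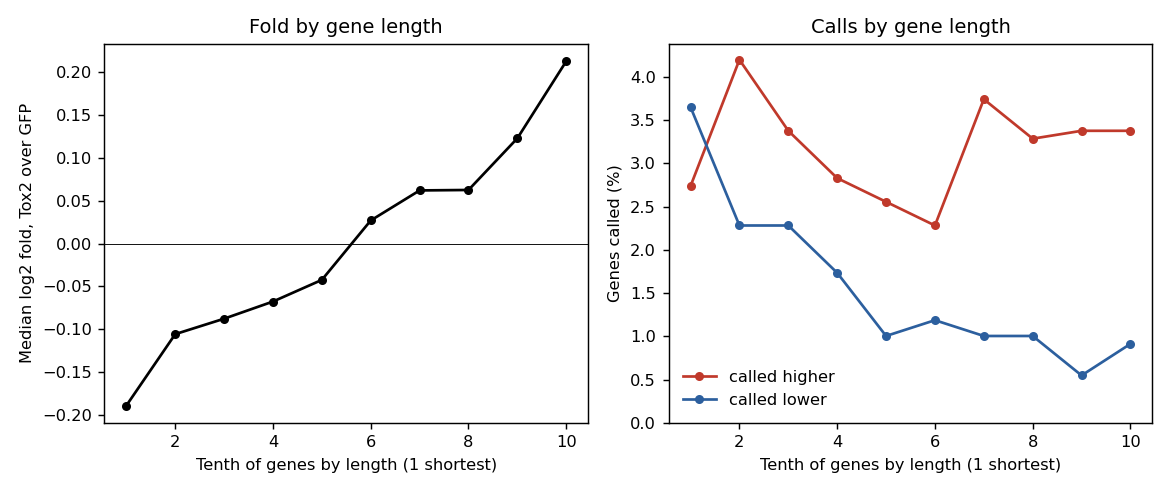
The x axis of both panels is the set of genes by length, from the shortest (1) to the longest (10), 1096 genes each. The left panel plots the median log2 fold, which goes from -0.19 to 0.21; the right panel plots the percentage of genes called higher (red) and lower (blue), with lower calls at 3.65% in the shortest and 0.912% in the longest set.

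Most of the genes with the largest folds on the higher side had few counts with GFP. Susd2, which encodes a sushi-domain membrane protein (chr10:75636706-75644008, minus strand), had 14 counts with GFP and 1342 with Tox2. Its log2 fold was 6.34 (5.78 to 7.41). H2-Eb2, a beta chain gene of the MHC class II cluster (chr17:34325665-34341412, plus strand), had 18 and 738 counts (5.16, 4.64 to 6.07). Dennd2a, of a family of activators of Rab GTPases, had 24 and 568 (4.41, 3.93 to 5.17). Wnt1, a secreted Wnt ligand (chr15:98789857-98793837, plus strand), had 18 and 378 (4.20, 3.66 to 5.12). In FPKM these 4 genes lay between 0.195 and 0.479 with GFP and between 4.56 and 22.7 with Tox2. The next in rank were Psd2, Nptx1 and Cxxc5. Psd2, an exchange factor for Arf GTPases, had 25 and 445 counts, and Nptx1, a neuronal pentraxin, 15 and 267. Cxxc5, a CXXC zinc finger protein, had 89 and 1372. Ikzf2 and Slc1a2 rest on more reads, so that their intervals are narrower. Ikzf2, encoding the Ikaros-family factor Helios, had 118 and 1795 counts (3.86, 3.61 to 4.16), and Slc1a2, a glutamate transporter, 180 and 2011 (3.42, 3.21 to 3.66). Nedd4, a ubiquitin ligase, had 308 and 3043 counts (3.25, 3.09 to 3.43). The rest of the 15 were the potassium channel subunit Kcnmb1 (17 and 245), the zinc transporter Slc30a3 (32 and 378), Sh3bgrl2 (26 and 292) and the kinase gene Pnck (14 and 160).

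On the lower side stood the chemokine gene Ccl20, which attracts CCR6-bearing cells. Its 156 counts with GFP stood against 7 with Tox2 (-4.17, -5.86 to -3.45). Il17f (chr1:20777146-20790617, minus strand) had 1018 and 70 counts (-3.87, -4.28 to -3.56). Both are products of Th17 cells. Col5a3, a collagen chain, had 453 and 64 counts (-2.83), and Klrc1, encoding the NK receptor NKG2A, 136 and 18 (-2.83). Spp1, the secreted protein osteopontin, had 283 and 52 (-2.45, -2.95 to -2.06). Gzmb, encoding granzyme B (chr14:56258838-56262260, minus strand), had 204 and 47 (-2.12, -2.66 to -1.70). Bmp2, a ligand of the BMP family, had 587 and 167 (-1.85), and Cth, the enzyme that makes cysteine from cystathionine, 626 and 170 (-1.92). Vat1l, Foxf2, Pxdc1, Rnd3, Vax2 and Ncald were also among the 15, with log2 folds from -2.48 to -1.85. Klrc1 has near-identical neighbours, so its counts are uncertain.

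**Figure D3:**
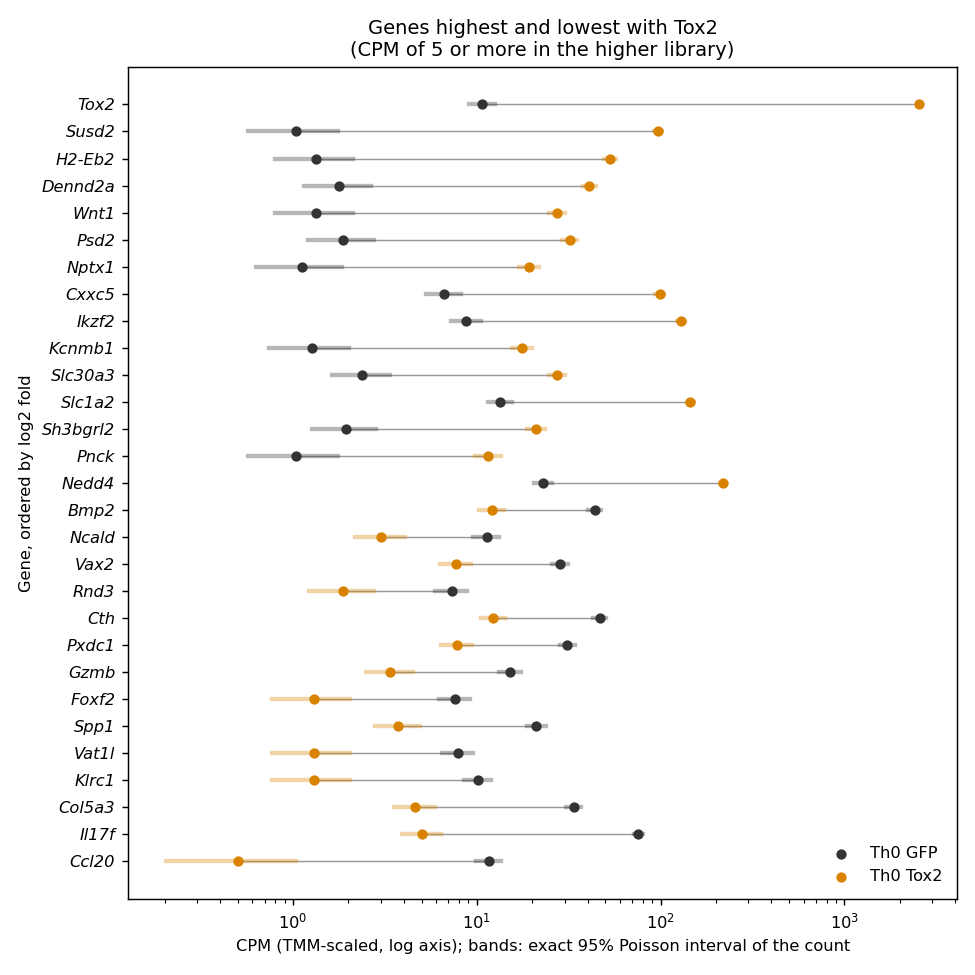
For the genes highest and lowest with Tox2 that are named in the text, at a CPM of 5 or more in the higher library, points give the TMM-scaled CPM on a log axis in Th0 GFP (dark) and Th0 Tox2 (orange), with exact 95% Poisson bands. No pair of bands overlaps; Susd2 goes from 14 to 1342 counts and Ccl20 from 156 to 7.

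Promoter sequences were searched for short letters that name known binding motifs, on both strands, in windows from 250 bases before to 50 after the RefSeq start (GRCm38.p6). Windows were found for 8829 of the genes compared, 264 of the higher and 126 of the lower. The letters TGANTCA, bound by AP-1, were in 4.87% of 11298 windows. They were in 8.00% of 350 windows of higher genes and in 12.5% (20 of 160) of windows of lower genes. CTTTGNT, part of the motif of TCF-1 and LEF-1, was in 13.5% of all windows, 15.7% of those of higher and 16.2% of those of lower genes. TTCNNNGAA (STAT) was in 6.70%, 7.14% and 6.25%, and GGAAAA (NFAT) in 63 of 350 higher windows and 24.4% of lower windows, against 20.4% of all. A match is not a site, and the lower genes with TGANTCA included Bcl2a1a, Bcl2a1b and Bcl2a1d, near-identical copies with related promoters. The motifs GGAAAA and TTCNNNGAA can share letters where they adjoin. Shown are the 250 bases before the start for the 2 lower genes of largest fold with TGANTCA and the 2 higher genes of largest fold with CTTTGNT, among genes named here,, so that the place of each match can be seen. They are 5′ to 3′ along the gene, with the match on either strand in capitals. They are Il17a at chr1:20730655-20730904 (plus), Gzmb at chr14:56262335-56262584 (minus), H2-Eb2 at chr17:34325425-34325674 (plus) and Wnt1 at chr15:98789607-98789856 (plus).
Il17a: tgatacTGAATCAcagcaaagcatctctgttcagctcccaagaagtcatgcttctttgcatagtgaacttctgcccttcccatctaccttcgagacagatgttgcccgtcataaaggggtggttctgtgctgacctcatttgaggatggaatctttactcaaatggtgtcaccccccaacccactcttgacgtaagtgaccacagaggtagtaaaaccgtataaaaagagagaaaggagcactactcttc
Gzmb: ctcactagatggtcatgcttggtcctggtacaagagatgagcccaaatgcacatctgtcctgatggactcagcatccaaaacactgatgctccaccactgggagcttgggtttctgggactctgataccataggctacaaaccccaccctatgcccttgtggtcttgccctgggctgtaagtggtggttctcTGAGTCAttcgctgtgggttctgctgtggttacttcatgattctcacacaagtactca
H2-Eb2: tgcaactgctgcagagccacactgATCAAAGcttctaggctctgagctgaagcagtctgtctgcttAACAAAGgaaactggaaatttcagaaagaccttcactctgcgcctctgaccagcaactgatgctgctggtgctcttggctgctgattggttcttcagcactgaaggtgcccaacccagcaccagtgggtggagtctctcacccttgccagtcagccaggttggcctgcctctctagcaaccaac
Wnt1: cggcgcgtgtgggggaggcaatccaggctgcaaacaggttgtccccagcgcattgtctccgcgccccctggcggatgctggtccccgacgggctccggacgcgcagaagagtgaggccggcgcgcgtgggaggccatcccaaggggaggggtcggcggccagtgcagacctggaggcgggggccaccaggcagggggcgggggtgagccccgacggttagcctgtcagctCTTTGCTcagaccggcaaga
H2-Eb2 held 2 matches to CTTTGNT, both read on the opposite strand, and Wnt1 held 1. Il17a and Gzmb held 1 match to TGANTCA each.

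Central Tfh factors and receptors were higher with Tox2, while other Tfh genes were lower. Bcl6 (chr16:23965052-23988852, minus strand) had 591 counts with GFP against 1734 with the virus, a log2 fold of 1.50 (1.37 to 1.64). Tcf7 had 6497 counts with GFP and 14605 with Tox2 (1.12, 1.08 to 1.16). Cxcr5 (chr9:44511787-44561877, minus strand) had 106 and 488 counts (2.13, 1.85 to 2.47). Other members concern cytokine and ATP sensing. Il6st, the gp130 chain through which IL-6 signals, had 1015 and 2989 counts (1.51), and P2rx7, an ATP-gated channel, 154 and 423 (1.40). Of 33 genes compared on the Tfh list these 5 were called higher and 2 lower, and the list's median was 0.00. The lower members were Maf, a factor that drives Il21 and Il4, with 214 and 72 counts (-1.59, -2.02 to -1.23), and the surface protein gene Cd200, with 4883 and 2482 (-1.02, -1.09 to -0.95). With the length trend removed the fold of Cd200 was -0.96 and it was no longer called. The list also holds Klf2 (-0.92), S1pr1 (0.26) and Selplg (0.12), which are counted again below among genes that oppose the Tfh fate. Its median is therefore not that of Tfh-promoting genes alone.

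Of the remaining T-cell genes fixed for naming, Socs3 was called. Pdcd1, encoding the inhibitory receptor PD-1, had 6417 and 9798 counts (0.56, 0.52 to 0.61). Lef1, a partner of TCF-1, had 2760 and 3454 (0.28), and Icos, a costimulatory receptor, 1837 and 1674 (-0.18). Il2ra, the alpha chain of the IL-2 receptor, had 5402 and 5591 counts (0.00, -0.05 to 0.06) in cells whose IL-2 was blocked. Prdm1, which encodes Blimp-1, the antagonist of Bcl6, was barely detected, with 15 and 9 counts (-0.67, -2.16 to 0.50). Il21, the Tfh cytokine, had 4 and 2, too few for a fold to be read at this depth. Socs3, a feedback inhibitor of gp130 signalling, had 101 and 277 (1.39, 1.07 to 1.75). Stat3, which carries the IL-6 signal, had 5399 and 9846 (0.82), short of 2-fold. Of 12 SOCS and related feedback genes Socs3 alone was called. Among 15 genes that oppose the Tfh fate Zbtb32 was called, with 2388 and 1063 counts (-1.21), and none was called higher.

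**Figure D4:**
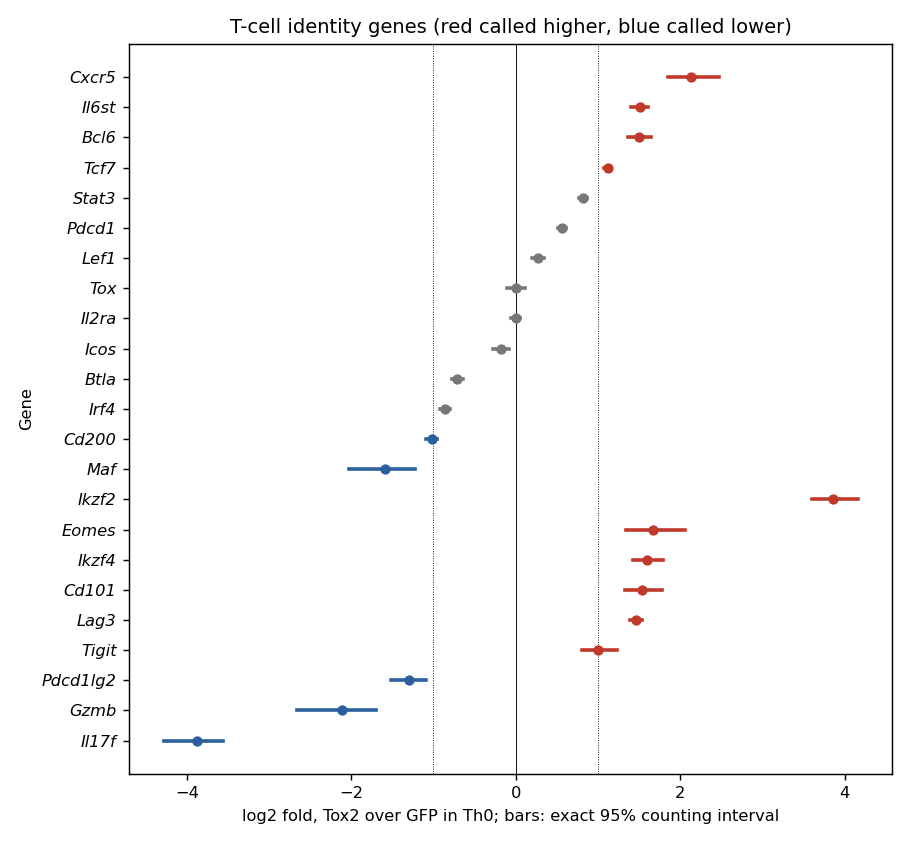
Points give the log2 fold of Tox2 over GFP in Th0 for T-cell genes, and bars the exact 95% counting interval; dotted lines mark 2-fold, red genes are called higher and blue lower. Cxcr5, Il6st, Bcl6 and Tcf7 lie above 1, Tox and Il2ra at 0.00, and Maf, Gzmb and Il17f below -1.

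Among 36 lineage transcription factors compared 7 were called higher and 2 lower, against 3.18% and 1.56% of all genes. The median was 0.26, and 0.16 with the length trend removed. Members of the Ikaros family were 3 of the 7. Beside Ikzf2, Ikzf4 (Eos, a partner of Foxp3 in regulatory T cells) had 315 and 991 counts (1.60, 1.42 to 1.79) and Ikzf3 (Aiolos) 119 and 324. Ikzf1, the founding member, had 12598 and 15540 (0.26). Eomes, a T-box factor of memory and cytotoxic cells, had 85 and 284 (1.67, 1.34 to 2.06), and Sox4, an HMG-box factor like Tox2, 203 and 631 (1.58, 1.36 to 1.82). Bcl6 and Tcf7 were the others. Maf was 1 of the 2 lower. Of 15 AP-1 and BATF genes 1 was called, Jdp2, a repressor that pairs with Jun, with 238 and 946 counts (1.93, 1.74 to 2.15). Junb had 15396 and 12123 (-0.39), and Jund 9201 and 5992 (-0.67). No member was called among 9 IRF factors, 15 NF-kB genes, 7 STAT genes or 15 immediate early and NFAT genes. Irf4 had 5652 and 3224 (-0.86) and Nr4a1 7114 and 10200 (0.47).

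The list of inhibitory receptors and exhaustion genes also holds the factors Tox, Nr4a1, Nr4a2 and Nr4a3. Of 20 genes compared 3 were called higher and 2 lower, with a median of 0.34. Lag3, a receptor for MHC class II, had 2072 and 5917 counts (1.47, 1.39 to 1.54). Cd101 had 225 and 681 (1.54, 1.33 to 1.77) and Tigit 270 and 563 (1.01, 0.80 to 1.23). Tigit sat at the threshold and was not called when libraries were scaled by their total counts. On the lower side, beside Cd200, was Pdcd1lg2, which encodes the PD-1 ligand PD-L2, with 607 and 254 (-1.30, -1.52 to -1.09). Cd5, an inhibitor of T-cell receptor signalling, had 11858 and 7862 (-0.64). Cd160 (177 and 345, 0.91) and Cd96 (634 and 1249, 0.93) were not called. With the length trend removed they stood at 1.003 and 1.05, past the threshold.

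Products of Th17 cells were lower with Tox2. Il17a (chr1:20730905-20734496, plus strand) had 56 counts with GFP and 1 with Tox2, a count ratio of 57.9 with an interval from 9.97 to 2326. Il17a, Il17f and Ccl20 were among the 4 members called lower of 17 Th17 genes. None was called higher, and the median was -0.43, or -0.25 with the length trend removed. Rora, a nuclear receptor of these cells, had 586 and 1061 counts (0.81), and Hif1a 4014 and 3002 (-0.47). Ccr6, the receptor for Ccl20, had 2487 and 2446 (-0.07, -0.15 to 0.01).

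Th1 and cytotoxic genes also had a median of -0.43, or -0.25 with the length trend removed. Of 25 compared 7 were called lower and 2 higher. Beside Gzmb and Klrc1, the lower genes were Klrc2 (48 and 7 counts), the chemokine receptor Cxcr3 (264 and 104, -1.37), the death ligand Fasl (523 and 215, -1.32), the granule protein Nkg7 (359 and 157) and the chemokine Ccl4 (349 and 164, -1.13). With the length trend removed Ccl4 was at -0.85 and Nkg7 at -0.995, just short of the threshold, and neither was called. Klrc2 and Klrc1 are near-identical neighbours. Eomes and the cathepsin gene Ctsw (29 and 77) were the higher 2. Cst7, a cystatin of cytotoxic cells, had 1803 and 1030 (-0.85). Not all members were lower, and 8 of the 25 lay above 0. The perforin gene Prf1 had 27 and 46 counts (0.68, 0.005 to 1.46) and was not called. The Th1 factor gene Tbx21 had 10 and 11 (0.08) and the chemokine gene Ccl5 90 and 95 (0.03).

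Among 9 Th2 genes compared 3 were called higher. Il13 had 4 counts with GFP and 61 with Tox2 (3.35, 2.45 to 5.80), although IL-4 was blocked in both cultures. The IL-9 receptor gene Il9r had 169 and 674 (1.94, 1.70 to 2.20) and the chemokine receptor Ccr8 434 and 1204 (1.42, 1.27 to 1.59). Areg, encoding the growth factor amphiregulin, was lower with 49 and 15 (-1.63), as was Maf. Of 18 regulatory T-cell genes 3 were called higher and none lower. They were Ikzf2, Ikzf4 and Itgb8, an integrin chain that activates TGF-beta, with 43 and 359 counts (2.96, 2.56 to 3.51). The median of that list was -0.11. Among 22 naive and memory genes Actn1 (1526 and 3798, 1.27) and Tcf7 were called higher and Igfbp4 (1127 and 514, -1.18) lower, with a median of 0.27.

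Read as secreted proteins, 20 cytokine genes had a median of -0.49, with 3 of the 20 above 0. Il13 was the 1 called higher, and Il17a, Il17f, Spp1 and Areg were the 4 called lower. Of 8 chemokine genes 2 were called in each direction. Xcl1, which attracts cross-presenting dendritic cells, had 28 and 179 counts (2.55, 2.05 to 3.26), and Cx3cl1 81 and 176 (1.05). Ccl20 and Ccl4 were the lower 2. Of 14 chemokine receptors Cxcr5 and Ccr8 were called higher. Cxcr3 and Cxcr6 (160 and 59, -1.46) were among the 3 called lower. Ccr7, the receptor that guides cells to the T-cell zone, had 13320 and 17885 (0.38). The other cytokine receptor chains called were Il10ra (61 and 141, 1.14), Il6st and Il9r, 3 of 26, all higher.

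In the TNF superfamily 4 of 26 genes were called lower and 1 higher. The ligands Cd70 (94 and 26, -1.82), Fasl and Tnfsf14 (1018 and 516, -1.02) and the receptor gene Tnfrsf8, encoding CD30 (61 and 17, -1.77), were lower. Tnfrsf1a, a receptor for TNF, was higher with 312 and 676 (1.06). Tnfsf14 was at -0.88 and not called with the length trend removed. The receptor gene Tnfrsf25 (372 and 721, 0.90) was not called, but stood at 1.02 with that trend removed, past the threshold. The SLAM family, whose members signal through SAP in Tfh cells, had no call among 9. Of 31 genes of T-cell receptor signalling 1 was called, the diacylglycerol kinase Dgkk, with 685 and 202 counts (-1.80, -2.04 to -1.58). Its relative Dgkz had 14538 and 22105 (0.56).

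In the Wnt pathway, secreted ligands bind Frizzled and LRP receptors, which stabilises beta-catenin, and beta-catenin works with TCF-1 and LEF-1 on their targets. Of 25 genes compared 6 were called higher and 1 lower, against 3.18% and 1.56% of all genes. The median was 0.39, and 0.22 with the length trend removed. Of the ligands, beside Wnt1, Wnt10b had 211 counts with GFP and 1596 with Tox2 (2.86, 2.66 to 3.09). The pair are neighbours on chromosome 15. Of secreted modulators, Dkk3 had 8 and 82 (3.02, 2.26 to 4.57) and Sfrp2, a Frizzled-related protein, 8 and 45. Cxxc5, which can inhibit Dishevelled, and Tcf7 were the others. Dkkl1 was the lower gene, with 92 and 42 (-1.14), and it was not called with the length trend removed (-0.98). The co-repressor gene Tle3 had 5499 and 6313 (0.15). No Frizzled or LRP gene was called.

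The TGF-beta and BMP list had 4 of 33 genes called higher and none lower, with 28 of the 33 above 0 and a median of 0.34. Smad3, which carries the TGF-beta signal to the nucleus, had 292 and 1135 counts (1.90, 1.72 to 2.10). Eng, a co-receptor, had 57 and 212 (1.81, 1.42 to 2.30). Skil, a repressor of Smads that TGF-beta induces, had 1056 and 2496 (1.19, 1.09 to 1.30), and Ltbp4, which binds latent TGF-beta, 32 and 78. The cytokine gene Tgfb1 had 6840 and 6025 (-0.23). In the Notch list 1 of 16 was called, Notch4, lower with 33 and 13.

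**Figure D5:**
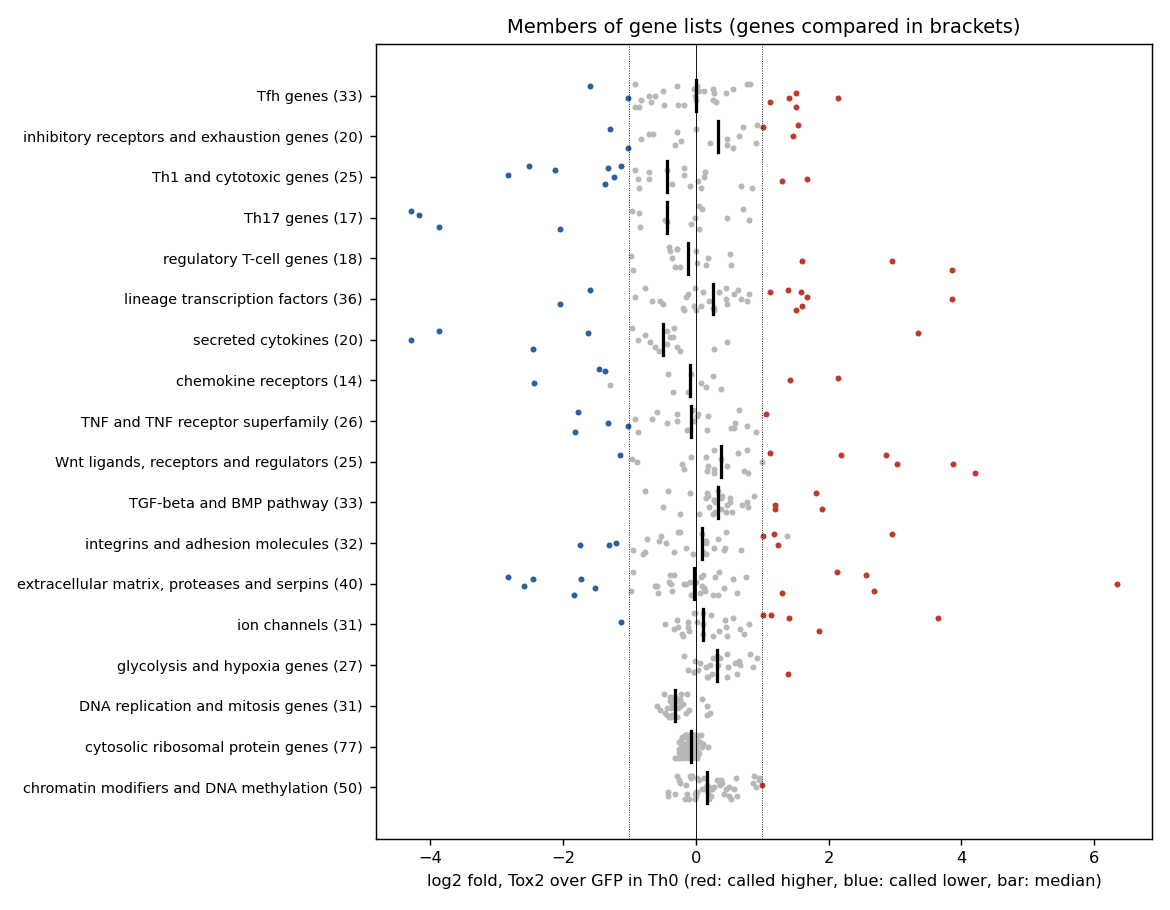
Each line of points is a gene list and each point a gene, placed by its log2 fold of Tox2 over GFP in Th0 (x); red points are called higher, blue lower, and the black bar is the list's median. Th17 and cytotoxic medians lie at -0.43, Wnt at 0.39, and ribosomal protein genes cluster at -0.08 with no call. With the length trend removed, which is not drawn, these medians were -0.25 for Th17, -0.25 for cytotoxic, 0.22 for Wnt and 0.05 for ribosomal protein genes.

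Genes of the cell surface and matrix were called in both directions. Of 32 integrins and adhesion genes 4 were higher and 3 lower. The higher ones, beside Itgb8, were the integrin chains Itgb3 (1200 and 2934, 1.24), Itga7 (664 and 1553, 1.18) and Itga4 (1401 and 2908, log2 interval 0.91 to 1.10). Itga4 lost its call with the length trend removed (0.76) and when scaled by total counts. The lower ones were the adhesion molecules Cadm1 (1123 and 345, -1.74) and L1cam (129 and 57) and the laminin receptor chain Itga3 (1907 and 793, -1.31). Of 40 matrix, protease and serpin genes 5 were higher and 6 lower. Tgm2, a protein crosslinking enzyme, had 30 and 194 counts (2.57), the myelin protein Pmp22 16 and 117 (2.68) and the laminin chain Lamb2 12 and 61 (2.12). Serpinb1a was among the 6 lower, with 10 counts with GFP and 0 with Tox2. It was under 1 CPM in both Th0 libraries and was compared only because of its level in the Tfh-like ones, so no fold is given. The urokinase gene Plau, its receptor Plaur and the inhibitor Timp1 (19 and 4) were lower, beside Col5a3 and Spp1.

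Of 31 ion channel genes 5 were higher: Kcnmb1, Kcnj8 (58 and 223, 1.86), P2rx7, Kcnh2 (63 and 145, 1.13) and the inositol trisphosphate receptor Itpr2 (563 and 1173), which was at 0.75 and not called with the length trend removed. The proton channel Hvcn1 was lower with 560 and 264 (-1.13). Kcnn4, a potassium channel of activated T cells, had 7430 and 6372 (-0.27). Of 43 solute carriers 4 were higher and 2 lower. Slc16a11, of the monocarboxylate carrier family, had 63 and 598 counts (3.16, 2.82 to 3.60), Slc37a2, of the sugar-phosphate exchangers, 59 and 491 (2.97, 2.62 to 3.42) and Slc35d3 101 and 275 (1.38). The vesicular glutamate transporter Slc17a6 was lower with 507 and 210 (-1.31), and the GABA transporter Slc6a13 had 20 and 3 counts. Of 36 G protein coupled receptor genes the cannabinoid receptor Cnr2 (45 and 135, 1.50) and Gpr146 (316 and 756, 1.21) were higher. Ramp3, a partner of calcitonin-family receptors (76 and 23, -1.69), and the adenosine receptor Adora2b (67 and 25, -1.40) were lower.

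Of 28 MHC and antigen processing genes 3 were called higher, H2-Eb2, H2-DMb2 (14 and 51, 1.68) and H2-Ob (19 and 47, 1.18), the last 2 at few counts. The class II invariant chain Cd74 had 1855 and 977 counts (-0.97), short of a call. Class I genes were level, with H2-K1 at 7392 and 7495 (-0.03). H2 genes have near-identical copies, so their counts are uncertain. Of the B-cell markers compared, Cd79a had 19 counts with GFP and 24 with Tox2, and Ebf1 20 and 118. In the Tfh-like libraries Ebf1 had 380 with GFP and 385 with Tox2, and Cd79a 10 and 13. The part of B cells in the MHC values was not tested. Of 31 interferon-stimulated genes 1 was called in each direction, Isg15 (9 and 23) and Isg20 (258 and 119, -1.15), with a median of 0.12.

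Several lists of growth and metabolism hold abundant genes, which were called less often than others. Of the 10 equal sets by mean CPM, the highest had 1.19% called higher and 0.365% lower, against 3.18% and 1.56% of all genes. The few calls below are to be read against that. DNA replication and mitosis genes had a median of -0.31, with 4 of 31 above 0 and none called. Mki67, the proliferation marker, had 8909 and 10710 (0.22), and Top2a 10186 and 9196 (-0.19). None of 21 cyclin and CDK inhibitor genes was called. The 77 ribosomal protein genes had a median of -0.08 and the 13 mitochondrial genes -0.09, with none called, and both medians were above 0 with the length trend removed (0.05 and 0.19). Glycolysis and hypoxia genes had a median of 0.33, with 22 of 27 above 0 and 1 called, the hypoxia-induced gene Ndrg1 (1381 and 3723, 1.38). Slc2a3, a glucose transporter, had 4941 and 9323 (0.87). No gene of cholesterol and fatty acid synthesis was called among 31; Scd2, a desaturase, had 13201 and 20749 (0.60). In the ATF4 amino acid response Cth and the asparagine synthetase Asns (389 and 170, -1.23) were lower, while Trib3, a feedback inhibitor of ATF4, was higher with 157 and 420 (1.36). The median of those 32 genes was -0.22.

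Of 19 ERK feedback genes the phosphatase Dusp1 was higher (615 and 1723, 1.44) and Dusp6 lower (2115 and 1086, -1.01). Dusp6 was not called with the length trend removed (-0.93). In the BCL2 family 4 of 18 were called lower and none higher. The BH3-only gene Bik had 55 and 24 counts (-1.18), and the A1 genes Bcl2a1d, Bcl2a1a and Bcl2a1b had folds of -1.06, -1.03 and -1.01. These 3 are near-identical, so their reads cannot be told apart with certainty, and with the length trend removed their folds were -0.82, -0.78 and -0.76, with none called. Mcl1 had 7159 and 6820 (-0.12). The antioxidant gene Srxn1 was the 1 call of 30 stress genes, with 176 and 60 (-1.57), and none of 19 p53 targets was called. Of 50 chromatin genes Kdm6b, a demethylase of histone H3, sat at the threshold with 954 and 1979 counts (log2 interval 0.89 to 1.12). It was not called under scaling by total counts or DESeq2 size factors, or with the length trend removed (0.92).

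After Tox2, the largest gains in CPM were in mt-Co1 (9388 to 10659 CPM), the elongation factors Eef2 and Eef1a1, Pkm, Tcf7, Ttyh3 and Scd2. Of these Tcf7 and Ttyh3 were called. Ttyh3, of a family of membrane proteins, had 4634 and 12109 counts (1.34, 1.29 to 1.39). The largest losses were in the actin gene Actb (5192 to 4356 CPM, -0.25), Tubb5, Lcp1, Eif5a, Pfn1, Ldha, Cfl1 and Spn, of which none was called. Actb, Lcp1, Pfn1 and Cfl1 encode actin or proteins that bind it. Their folds lay between -0.43 and -0.25.

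Neighbouring genes were compared along each chromosome. Of 10934 pairs of neighbouring genes compared, 25 (0.229%) had both members called higher, 11 both lower and 16 in opposite directions. Among single genes 3.18% were called higher and 1.56% lower. How many pairs of each kind these shares alone would give was not computed, so the counts are not read as an effect of position. The higher pairs included Wnt10b and Wnt1, with Ddn (17 and 126 counts) on their far side, and Cxxc5 and Psd2. The lower pairs included Il17a and Il17f, and Klrc2 and Klrc1. They also included Cd70 and Tnfsf14, which C3 (51 and 24) follows. Several of these pairs are gene duplicates, and reads from a gene and its neighbour were not told apart beyond the deposited counting.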

How the data were processed

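Of the 4 RNA-seq libraries from mouse CD4+ T cells, the 2 from Th0 culture, 1 with the Tox2 virus and 1 with the GFP virus, are compared here. RNA was taken up in Trizol and libraries were made at BGI, per the labels' protocols. The deposited files give whole-number read counts per gene, raw in the deposited form by their headers and values, and FPKM, which the authors computed per the file headers. Bowtie2, featureCounts of Subread, MACS2, edgeR and Trim Galore 0.4.4 are listed, with build mm10 and no roles, in the submitters' processing notes. No source used here gives the annotation or strand setting, so overlapping or near-identical genes are uncertain.

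Counts were scaled by TMM over the 4 libraries (edgeR 4.0.16, R 4.3.3; factors 1.03 for Th0 with GFP and 1.02 for Th0 with Tox2). A gene was compared if any of the 4 libraries reached a CPM of 1; the files hold 11027 genes, already reduced to those with a plain CPM of at least 0.658 in the second-highest library. Intervals are exact conditional binomial ones (scipy 1.17.1). No source names molecular identifiers, so reads may not be independent molecules and intervals and floors cover counting error only. The procedure was tested on simulated counts that held counting error alone, with no length trend. That test therefore does not bear on differences between cultures. Length came from counts divided by FPKM, and its trend was removed by lowess (statsmodels 0.14.6, span 0.3). Positions and GC content came from GENCODE M21 (GRCm38), which placed 10955 genes, and promoter windows from RefSeq. DESeq2 1.42.0 size factors, total counts, FPKM scaling, other filters, prior counts and a stricter call were alternatives.

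The lists, 55 in number with markers, and the rule for naming were chosen with earlier results of these data known. The rule takes Tox2, 12 T-cell genes, the 15 highest and 15 lowest called genes at a CPM of 5 or more, and the 8 largest gains and losses in CPM. From each list it adds up to 4 called members in each direction and the 2 most abundant. Predicted genes and antigen receptor segments were not named. Any other gene named was picked with its values in view. Some genes that the rule takes are not reported here, though they stay in the counts and medians.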

Additional observations from a re-analysis of the deposited data

Results flagged for a closer look

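Of the 348 genes called higher in Th0, 135 were also called higher in the Tfh-like pair of libraries, and of the 171 called lower 62 were also called lower. Another 9 were called in opposite directions. The share of all genes called in the Tfh-like pair is not given here, so these counts cannot be called many or few. Cxcr6 and Tgm2, of the genes named here, were among the 9 in opposite directions. Cxcr6, a chemokine receptor of effector and tissue-resident T cells, gave 160 counts with GFP and 59 with Tox2 in Th0, a log2 fold of -1.46. Its counts in Tfh-like culture were 83 and 320 (1.89). For Tgm2, a protein crosslinking enzyme, the Th0 counts were 30 and 194 (2.57). The Tfh-like counts were 4434 and 2036 (-1.16). The difference between the cultures was not tested, since each group has 1 library.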

How the results depend on the processing

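Under 12 alternatives the number of genes called stayed between 373 and 538, against 519, except under the strictest rule. With the whole counting interval required past 2-fold it was 261 (194 higher, 67 lower). With a CPM of at least 5 required in a Th0 library the lower calls were 99, because fewer genes were compared (9678). Higher calls were 67.1% of all calls, and 64.8 to 69.5% under the other scalings. Of 217 genes named by the rule 119 were called, and none of these changed sign under any alternative. With the length trend removed 10 of the 119 lost their call, and under the other scalings 8 did. With length and GC trends removed, an alternative added after the data were seen, 506 genes were called, 342 higher and 164 lower. Of 52 list medians 19 had a different sign under some alternative; the regulatory T-cell median was 0.0088 at a CPM of at least 5, and the Tfh median -0.02 under total counts. The median of the G protein coupled receptor list was -0.16, and -0.11 with the gene at 0 counts set to its bound. No paired analysis was possible because each group has 1 library. At low counts the intervals are wide, and a prior count of 10 gave Il17a a fold of -2.59 and Il13 one of 2.30.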

Other observations

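Beside the genes of the lists, called genes with many counts were of other kinds. They were picked with their values in view, from the 12 called genes with the most counts in each direction. On the higher side Nrgn, encoding neurogranin, a calmodulin-binding protein best known from neurons, had 3141 counts with GFP and 8377 with Tox2 (log2 fold 1.37, 1.31 to 1.43). Samhd1, a nucleotide-cleaving enzyme that restricts retroviruses, had 5239 and 11360 (1.07, 1.02 to 1.12). Arrb1, encoding beta-arrestin 1, had 3366 and 8479 (1.28), and Tbc1d4, a regulator of glucose transporter traffic, 2661 and 6509 (1.24). Serp1, Utrn, Pkp4 and Plxnd1 followed, with log2 folds between 1.09 and 1.18. With the length trend removed Samhd1 was at 0.93 and Utrn at 0.79, and neither was called.

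On the lower side Marcksl1, an actin-binding substrate of protein kinase C, had 5836 and 2662 counts (-1.18, -1.25 to -1.11), and Igfbp7, a secreted protein that binds insulin-like growth factors, 4847 and 2493 (-1.01; -0.81 and not called with the length trend removed). Pdgfb, a chain of platelet-derived growth factor, had 1761 and 689 (-1.40, -1.53 to -1.27). Pdgfa, another chain, which was not among the called genes with the most counts, had 25 and 184. Ptp4a3, Abcd3, Tspan3 and Shtn1 had log2 folds of -1.04, -1.05, -1.07 and -1.30.

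The predicted gene Gm10800 (chr2:98666547-98667301, minus strand, GRCm38) had the lowest log2 fold of all genes compared, -8.74 (-9.99 to -8.14). It had 5391 counts in Th0 with GFP, or 0.0414% of that library, and 11 in Th0 with Tox2. The Tfh-like libraries had 21 with GFP and 9 with Tox2, so that the Th0 GFP library alone was high. Its length was 0.151 of the median gene.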
